A study of Mus musculus with 27 samples.

Results

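Dual-specificity phosphatases and the Sprouty and Spred proteins switch off the mitogen-activated protein (MAP) kinase pathways that growth factors switch on, and many of their genes are themselves induced when the pathway is active. 10 such genes were followed in mouse uterus after estradiol: Dusp1, Dusp2, Dusp4, Dusp5, Dusp6, Dusp10, Spry1, Spry2, Spry4 and Spred2. Probes were taken by the gene name printed in the scanner files. 9 of the 10 genes had a probe, with 13 probes in all among the 41174 of the array, and no probe carried the name Dusp5. All 9 measured genes passed the filter on dim probes and were tested among 21866 genes. The series measured uterine RNA on 27 one-colour Agilent whole-genome arrays, 3 in each of 9 groups. The groups were F1 offspring of C57BL/6 (B6) and C3H/HeJ (C3H) mice, C3H mice and B6 mice, each given vehicle or 17β-estradiol (E2) and, for E2, sampled at 2 h or 24 h. Every animal was an 8-week-old female that had been ovariectomised and rested for 1 to 2 weeks, so the vehicle groups too lacked ovarian hormone. E2 was injected intraperitoneally at 40.0 µg per kg in 0.1 ml saline with 0.25% ethanol, and when vehicle uteri were taken is not labelled. RNA came from uterine tissue of 3 animals per treatment group, and which animal stands behind which array is not labelled. The p-values therefore speak only of the spread among these arrays, which may be technical.

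A MAP kinase is active only while a threonine and a tyrosine in its activation loop both carry phosphate, and a dual-specificity phosphatase removes both. The family members differ in where they act and on which kinase: some sit in the nucleus and act on ERK, JNK and p38, some stay in the cytoplasm and act on ERK, and some prefer JNK and p38. Sprouty and Spred proteins act further upstream, between receptor tyrosine kinases and the RAS-ERK cascade. In the uterus, estradiol acts through its nuclear receptor and also raises growth factors that signal through receptor tyrosine kinases.

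Levels are given as log2 of the scanner's processed signal minus that array's 75th percentile, so 0 is the array's own 75th percentile of signal. The 75th percentile lay between 1148 and 1483 signal units over the 27 arrays, and 72.4% to 79.4% of probes were well above background. 8 of the 9 measured genes had their fitted probe well above background on all 27 arrays, and the exception was Spry4, on 25 of 27. For Dusp4, Spry2 and Spred2 the fit used the brighter probe, which the scanner files assign to a sequence record outside RefSeq. The dimmer probe of each of these genes is the one assigned to a RefSeq transcript. 3 arrays lay farther from their groups than the others: C3H E2 24 h replicate 1 with 497 genes over 1 log2 unit from its group mean, B6 vehicle replicate 1 with 436 and C3H E2 2 h replicate 1 with 297. The last had the highest summed signal of 8 leukocyte markers (5.71 on the log2 scale), B6 vehicle replicate 1 the next highest (4.18), and the other 25 arrays lay at 3.61 or below. Where leaving out these 3 arrays changed a call, the value without them is given beside it. Epithelial and smooth muscle markers were present on every array, with summed levels of at least 6.46 and 8.96, and in such bulk RNA fewer cells of a type and less RNA per cell cannot be told apart.

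The 250 bases upstream of the start site, from RefSeq on GRCm38.p6, were available for 8 of the 10 genes, with Dusp4 and Spry4 named only. 5 are shown because their genes carried the main results: Dusp1, Dusp2 and Spry2 rose together at 2 h, Dusp6 rose in F1 and C3H, and Spry1 fell. The windows are Dusp1 chr17:26508473-26508722, minus strand, Dusp2 chr2:127335909-127336158, plus strand, Spry2 chr14:105896820-105897069, minus strand, Dusp6 chr10:99262981-99263230, plus strand, and Spry1 chr3:37639697-37639946, plus strand. Each is written 5′ to 3′ along its gene, and capitals mark every match to the core of the cyclic AMP response element (TGACG), the AP-1 site TGANTCA, the serum response (CArG) box or the core of the oestrogen response element (GGTCA), on either strand.
Dusp1: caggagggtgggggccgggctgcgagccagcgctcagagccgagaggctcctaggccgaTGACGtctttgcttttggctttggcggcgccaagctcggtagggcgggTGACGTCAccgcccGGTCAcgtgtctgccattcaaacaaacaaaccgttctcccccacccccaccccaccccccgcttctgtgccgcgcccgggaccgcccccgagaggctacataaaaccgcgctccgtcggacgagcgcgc
Dusp2: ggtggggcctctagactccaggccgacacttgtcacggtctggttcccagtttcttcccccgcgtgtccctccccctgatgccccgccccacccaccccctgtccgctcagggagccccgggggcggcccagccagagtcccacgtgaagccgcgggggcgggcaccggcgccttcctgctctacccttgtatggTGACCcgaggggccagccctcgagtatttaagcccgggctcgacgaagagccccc
Spry2: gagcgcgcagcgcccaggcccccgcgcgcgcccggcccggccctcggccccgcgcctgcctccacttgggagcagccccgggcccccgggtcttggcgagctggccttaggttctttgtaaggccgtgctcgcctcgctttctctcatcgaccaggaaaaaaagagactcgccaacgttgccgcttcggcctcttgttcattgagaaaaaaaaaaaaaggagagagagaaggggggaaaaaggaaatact
Dusp6: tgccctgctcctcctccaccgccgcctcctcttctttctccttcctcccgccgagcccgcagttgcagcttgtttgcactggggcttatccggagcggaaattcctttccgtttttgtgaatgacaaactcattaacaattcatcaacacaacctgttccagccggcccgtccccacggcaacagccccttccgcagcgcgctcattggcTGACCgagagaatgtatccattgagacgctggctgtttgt
Spry1: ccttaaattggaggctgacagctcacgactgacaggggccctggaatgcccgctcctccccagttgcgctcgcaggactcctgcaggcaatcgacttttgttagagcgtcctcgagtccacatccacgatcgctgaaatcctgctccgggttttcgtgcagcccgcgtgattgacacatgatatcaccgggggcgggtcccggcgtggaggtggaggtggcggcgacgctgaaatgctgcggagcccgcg

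The Dusp1 window held a complete cyclic AMP response element, TGACGTCA, starting 143 bases upstream of the start, a sequence that 1.55% of 32851 promoter windows of the same length held. That element counts as 2 of the 3 TGACG matches of Dusp1, since it reads the same on both strands, and 17.8% of windows held at least 1 TGACG. A single GGTCA stood in each of the Dusp1, Dusp2 and Dusp6 windows, 129, 55 and 40 bases upstream, and 35.2% of all windows held one. None of the 5 windows held the AP-1 site, the CArG box or the full oestrogen response element (the GGTCA core, 3 bases of any kind and its reverse complement), which occurred in 6.75%, 1.47% and 0.0639% of windows. The GC box GGGCGG, not capitalised, occurred 3 times each in Dusp1 and Dusp2 and once in Spry1, against 32.7% of windows with at least 1, and the ETS core CCGGAA (12% of windows) occurred in none of the 5. No letters of any of these 8 patterns were found in the Spry2 window. A match describes the letters of the window and is not evidence of binding.

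At 2 h, E2 raised the nuclear phosphatases Dusp1 and Dusp2 and the Sprouty genes Spry2 and Spry4 in all 3 strains, raised Dusp6 in F1 and C3H, and lowered Dusp4 and Spry1 in all 3 strains. Dusp1 (MKP-1), a nuclear phosphatase of p38, JNK and ERK known as an immediate early gene, rose in all 3 strains. Dusp1 read 2.29, 2.23 and 2.03 on the F1 E2 2 h arrays, against 0.06, -0.12 and 0.18 on the F1 vehicle arrays. It read 2.14, 2.19 and 2.07 on the C3H E2 2 h arrays, against -0.18, -0.31 and 0.13 on the C3H vehicle arrays. It read 2.57, 2.18 and 2.04 on the B6 E2 2 h arrays, against -0.23, -0.24 and -0.05 on the B6 vehicle arrays. Every E2 array lay above every vehicle array by more than the spread of either group, and the 3 strains gave nearly the same values. The rise was 4.42-fold in F1, 4.77-fold in C3H and 5.41-fold in B6 (log2 differences 2.14, 2.25 and 2.44, each with SE 0.14; limma adjusted p 3.65e-11, 1.87e-11 and 5.88e-12). The Dusp1 probe lies at chr17:24690398-24690455 in the mm7 coordinates of the scanner files.

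Dusp2 (PAC-1), another inducible nuclear phosphatase, rose by similar factors on different vehicle levels. Dusp2 read 2.28, 2.24 and 2.18 on the F1 E2 2 h arrays, against 0.92, 0.15 and 0.15 on the F1 vehicle arrays. It read 1.7, 1.66 and 1.83 on the C3H E2 2 h arrays, against -0.18, -0.09 and 0.03 on the C3H vehicle arrays. It read 3.02, 2.88 and 2.65 on the B6 E2 2 h arrays, against 1.41, 0.8 and 1.11 on the B6 vehicle arrays. E2 and vehicle arrays were separate within each strain, and B6 was the highest and C3H the lowest strain at both. Rises were 3.56-fold in F1, 3.5-fold in C3H and 3.34-fold in B6 (log2 1.83, 1.81 and 1.74, SE 0.17; adjusted p 9.7e-09, 1.32e-08 and 2.46e-08). Its probe lies at chr2:127079047-127079106 (mm7).

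Dusp4 (MKP-2), a nuclear phosphatase of the same subfamily as Dusp1 and Dusp2, moved the other way. Dusp4 read -0.96, -1.03 and -1.27 on the F1 E2 2 h arrays, against -0.31, -0.42 and -0.38 on the F1 vehicle arrays. It read -1.07, -0.79 and -1.22 on the C3H E2 2 h arrays, against -0.26, -0.38 and -0.22 on the C3H vehicle arrays. It read -1.35, -1.34 and -1.37 on the B6 E2 2 h arrays, against -0.6, -0.69 and -0.76 on the B6 vehicle arrays. The vehicle arrays were all above the E2 arrays of their strain. Dusp4 was lower with E2, with log2 differences of -0.72 in F1, -0.74 in C3H and -0.67 in B6 (SE 0.11; adjusted p 8.72e-06, 6.57e-06 and 2.64e-05). With normexp background correction fitted on all spots the B6 value was -0.37 (SE 0.19) and did not pass (adjusted p 0.227). A dimmer Dusp4 probe gave -0.17 in F1, -0.62 in C3H and -0.27 in B6 (SE 0.21), and passed the test only in C3H of the 3 strains (adjusted p 0.502, 0.0134 and 0.277). The probe in the fit lies at chr8:33583106-33583165 and the dimmer one at chr8:33580345-33580404 (mm7).

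Dusp6 (MKP-3), the cytoplasmic phosphatase specific for ERK, rose in F1 and C3H. Dusp6 read 3.98, 4.53 and 4.16 on the F1 E2 2 h arrays, against 3.52, 3.4 and 3.44 on the F1 vehicle arrays. It read 4.47, 4.81 and 4.57 on the C3H E2 2 h arrays, against 3.62, 3.32 and 3.59 on the C3H vehicle arrays. It read 3.3, 3.79 and 3.74 on the B6 E2 2 h arrays, against 3.66, 3.07 and 3.04 on the B6 vehicle arrays. E2 arrays were separate from vehicle arrays in F1 and C3H, and the B6 groups overlapped, with 1 vehicle array between the E2 arrays. Dusp6 rose 1.71-fold in F1 (log2 0.77, adjusted p 0.000288) and 2.15-fold in C3H (log2 1.1, adjusted p 4.77e-06), each with SE 0.16. In B6 the difference was 0.35 (SE 0.16, 95% interval 0.02 to 0.69) and missed the threshold at adjusted p 0.0678. Single arrays and scaling decided this call. It passed without B6 vehicle replicate 1 (0.55, adjusted p 0.00429), without B6 E2 2 h replicate 1 (0.51, adjusted p 0.014), without the 3 distant arrays (0.55, adjusted p 0.00496), with median scaling (0.43, adjusted p 0.0385) and unscaled (0.43, adjusted p 0.0127). Its probe lies at chr10:98828759-98828818 (mm7).

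Dusp10 (MKP-5), which acts on p38 and JNK, did not pass the test at 2 h: the log2 differences were -0.02 in F1, -0.09 in C3H and 0.07 in B6 (SE 0.18; adjusted p 0.94, 0.689 and 0.753), with 95% intervals reaching from -0.46 to 0.44 over the strains. Its group means ± SD were -1.03 ± 0.1 with E2 and -1.01 ± 0.29 with vehicle in F1, -0.81 ± 0.32 and -0.72 ± 0.34 in C3H, and -1 ± 0.19 and -1.07 ± 0.11 in B6 (n = 3 arrays each). The probe lies at chr1:183600757-183600816 (mm7).

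**Figure D1:**
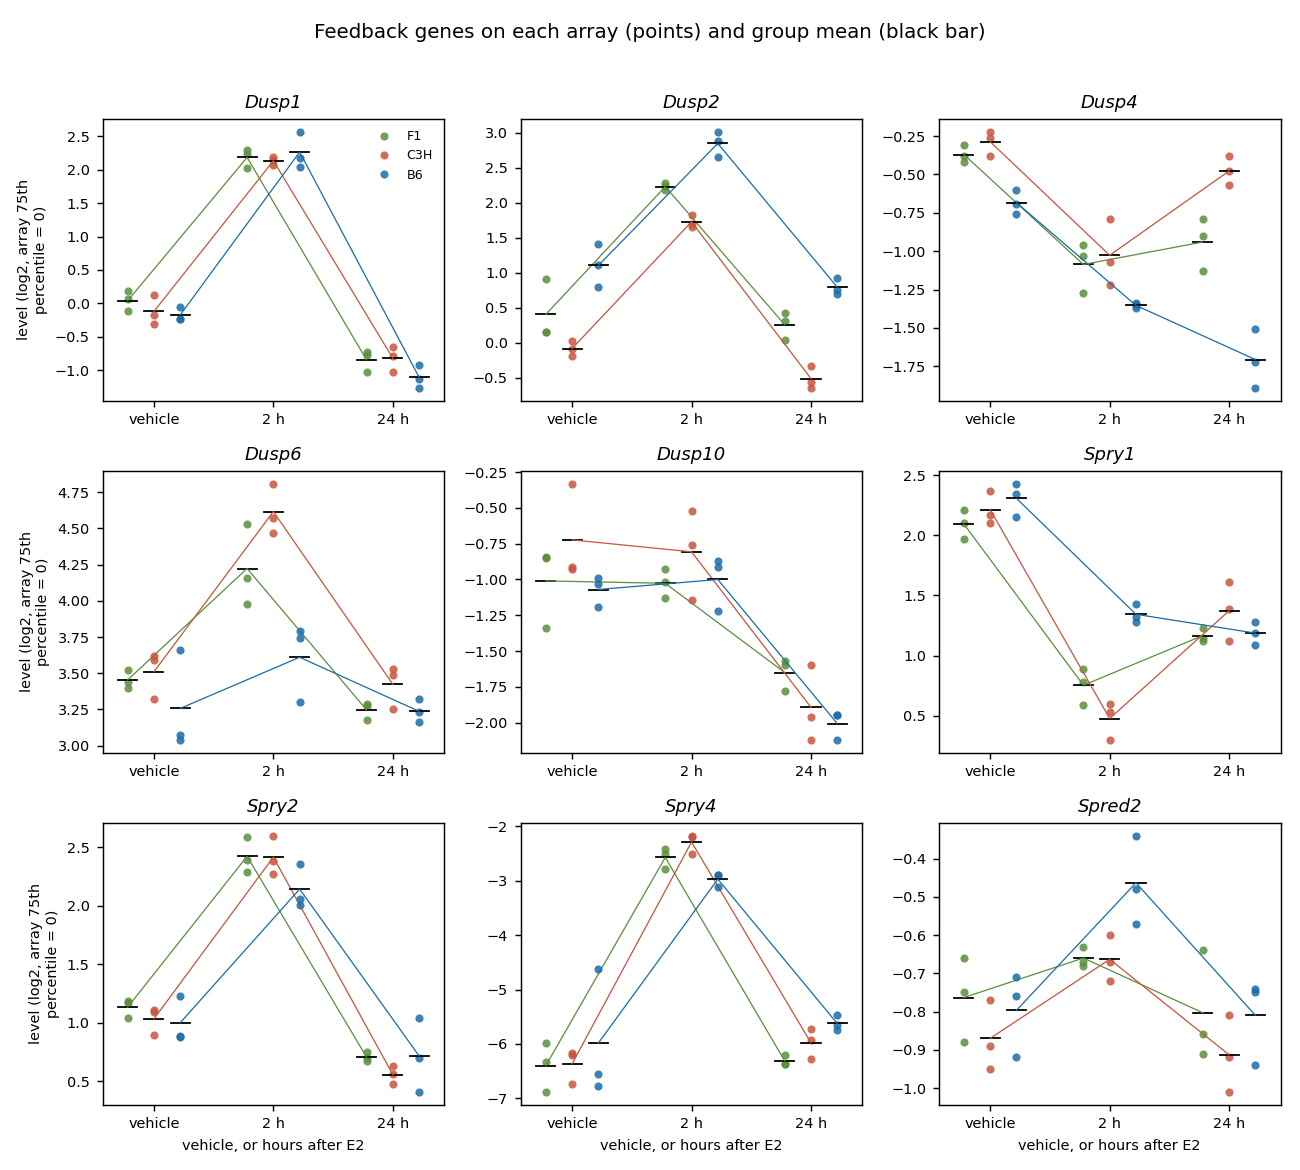
Level of each of the 9 measured genes on each of the 27 arrays (y axis, log2 relative to the array's 75th percentile; each panel has its own scale), for vehicle and 2 h and 24 h after E2, with green points for F1, red for C3H and blue for B6, black bars for group means of 3 arrays and lines joining the means of a strain. Dusp1, Dusp2, Spry2 (brighter probe) and Spry4 peak at 2 h in every strain, Spry1 is highest with vehicle, and at 24 h Dusp4 (brighter probe) averages -0.94 in F1, -0.48 in C3H and -1.71 in B6.

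Among the Sprouty genes, whose products hold back RAS-ERK signalling below receptor tyrosine kinases, Spry2 and Spry4 rose and Spry1 fell. Spry4 read -2.78, -2.42 and -2.51 on the F1 E2 2 h arrays, against -5.98, -6.88 and -6.34 on the F1 vehicle arrays. It read -2.5, -2.17 and -2.19 on the C3H E2 2 h arrays, against -6.73, -6.17 and -6.2 on the C3H vehicle arrays. It read -2.9, -3.12 and -2.89 on the B6 E2 2 h arrays, against -6.78, -4.62 and -6.55 on the B6 vehicle arrays. The E2 arrays all lay far above the vehicle arrays, and B6 vehicle replicate 2 stood apart from the other B6 vehicle arrays. The rise was 14.2-fold in F1, 16.9-fold in C3H and 8.08-fold in B6 (log2 3.83, 4.08 and 3.01, SE 0.36; adjusted p 9.13e-09, 3.93e-09 and 3.63e-07). Without B6 vehicle replicate 2 the B6 log2 difference was 3.7 (SE 0.21, adjusted p 2.77e-11). The vehicle levels were near the scanner's detection limit: the probe was not well above background on C3H vehicle replicate 1 and F1 vehicle replicate 2, and the size of the fold depends on how background is removed, with log2 differences of 1.74 in F1, 2.01 in C3H and 1.38 in B6 after normexp background correction fitted without spots far below local background (adjusted p 1.63e-11, 1.45e-12 and 9.79e-10). With normexp fitted on all spots the rise was 0.72 in F1, 1.21 in C3H and 1.4 in B6 and did not pass (adjusted p 0.505, 0.405 and 0.376). Another Spry4 probe was well above background on 0 of 27 arrays and gives no fold.

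Spry2 read 2.39, 2.59 and 2.29 on the F1 E2 2 h arrays, against 1.04, 1.19 and 1.17 on the F1 vehicle arrays. It read 2.38, 2.6 and 2.27 on the C3H E2 2 h arrays, against 1.09, 0.9 and 1.11 on the C3H vehicle arrays. It read 2.01, 2.36 and 2.06 on the B6 E2 2 h arrays, against 1.23, 0.88 and 0.89 on the B6 vehicle arrays. The lowest E2 array of any strain was above the highest vehicle array of any strain. Spry2 rose 2.44-fold in F1, 2.6-fold in C3H and 2.2-fold in B6 (log2 1.29, 1.38 and 1.14, SE 0.13; adjusted p 4.54e-08, 1.84e-08 and 3.19e-07). A dimmer Spry2 probe also rose, by less: 0.52 in F1, 0.6 in C3H and 0.44 in B6 (SE 0.09; adjusted p 2.82e-05, 4.58e-06 and 0.000228). The brighter probe lies at chr14:100321854-100321913 and the dimmer one at chr14:100322370-100322429 (mm7).

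Spry1 read 0.59, 0.89 and 0.78 on the F1 E2 2 h arrays, against 2.1, 1.97 and 2.21 on the F1 vehicle arrays. It read 0.3, 0.53 and 0.6 on the C3H E2 2 h arrays, against 2.1, 2.17 and 2.37 on the C3H vehicle arrays. It read 1.32, 1.43 and 1.28 on the B6 E2 2 h arrays, against 2.15, 2.43 and 2.34 on the B6 vehicle arrays. Vehicle levels were alike in the 3 strains and lay above all E2 arrays, while the E2 arrays fell into different ranges, B6 above both F1 and C3H. Spry1 was 2.53-fold lower with E2 in F1, 3.33-fold lower in C3H and 1.95-fold lower in B6 (log2 -1.34, -1.74 and -0.96, SE 0.11; adjusted p 2.08e-09, 4.41e-11 and 3.38e-07). The Spry1 probe lies at chr3:37455053-37455112 (mm7).

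Spred2, a Sprouty-related inhibitor of RAS-ERK signalling, moved least among the genes called: its log2 differences were 0.1 in F1, 0.2 in C3H and 0.34 in B6 (SE 0.09; adjusted p 0.317, 0.045 and 0.00209), which passed the test in C3H and B6. The arrays ranged from -0.68 to -0.63 with E2 and from -0.88 to -0.66 with vehicle in F1, from -0.72 to -0.6 and from -0.95 to -0.77 in C3H, and from -0.57 to -0.34 and from -0.92 to -0.71 in B6. The C3H call was lost in 9 of 19 alternative settings, and over all 19 the value ranged from 0.03 to 0.36. The F1 value passed with median scaling (0.24, adjusted p 0.0235) and unscaled (0.33, adjusted p 0.039). A dimmer Spred2 probe passed the test in none of the 3 strains at 2 h (0.03 in F1, -0.15 in C3H and 0.19 in B6, limma adjusted p 0.846, 0.266 and 0.168; none had an unadjusted p under 0.05). The Spred2 probes lie at chr11:19975721-19975780 and chr11:19974356-19974415 (mm7).

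Counted together, 7 of the 9 measured genes passed the test at 2 h in F1 (5 higher, 2 lower), where 59.2% of all genes tested did (23.7% higher, 35.5% lower). In C3H 8 of 9 passed (6 higher, 2 lower), against 60.3% of all genes (24.9% higher, 35.5% lower). In B6 7 of 9 passed (5 higher, 2 lower), against 56.2% (23.1% higher, 33.1% lower). The share of these genes called was above the background in each strain, and so was the share called higher. These 9 genes were chosen with earlier results of these data known, so the shares describe them and are not independent evidence. 6 genes were called with the same sign in all 3 strains (Dusp1, Dusp2, Spry2 and Spry4 higher, Dusp4 and Spry1 lower), against 45.4% of all genes tested (18.3% higher, 27.1% lower). The median log2 difference of the 9 was 0.77 in F1, 1.1 in C3H and 0.35 in B6, beside -0.1, -0.1 and -0.08 over all genes. The split of the background moves with scaling: of the genes called at 2 h, 40% in F1, 41.2% in C3H and 41.1% in B6 were higher, against 51.7%, 53% and 48.8% when arrays were scaled to their median, and 60.6%, 56.2% and 48.9% unscaled.

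Arrays lay 4 to a slide, with 3 on the last, and a slide held arrays of 1 or 2 groups. Slide 6 held the 3 F1 E2 2 h arrays with F1 vehicle replicate 3, and within it the log2 differences were 2 for Dusp1, 2.09 for Dusp2, -0.71 for Dusp4, -1.46 for Spry1, 1.25 for Spry2 and 3.77 for Spry4, all past the threshold, and 0.78 for Dusp6 (adjusted p 0.0747). Slide 1 held B6 E2 2 h replicate 1 with the 3 B6 vehicle arrays, and gave 2.74 for Dusp1, 1.91 for Dusp2, -0.66 for Dusp4, -0.98 for Spry1 and 1.01 for Spry2, all past the threshold, beside 3.08 for Spry4 (adjusted p 0.118) and 0.31 for Spred2 (adjusted p 0.194). These fits rest on 1 array in one of their groups, which was taken to vary like the others. No slide held both C3H E2 2 h and C3H vehicle arrays, so for C3H the slide and the treatment cannot be told apart within slides.

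**Figure D2:**
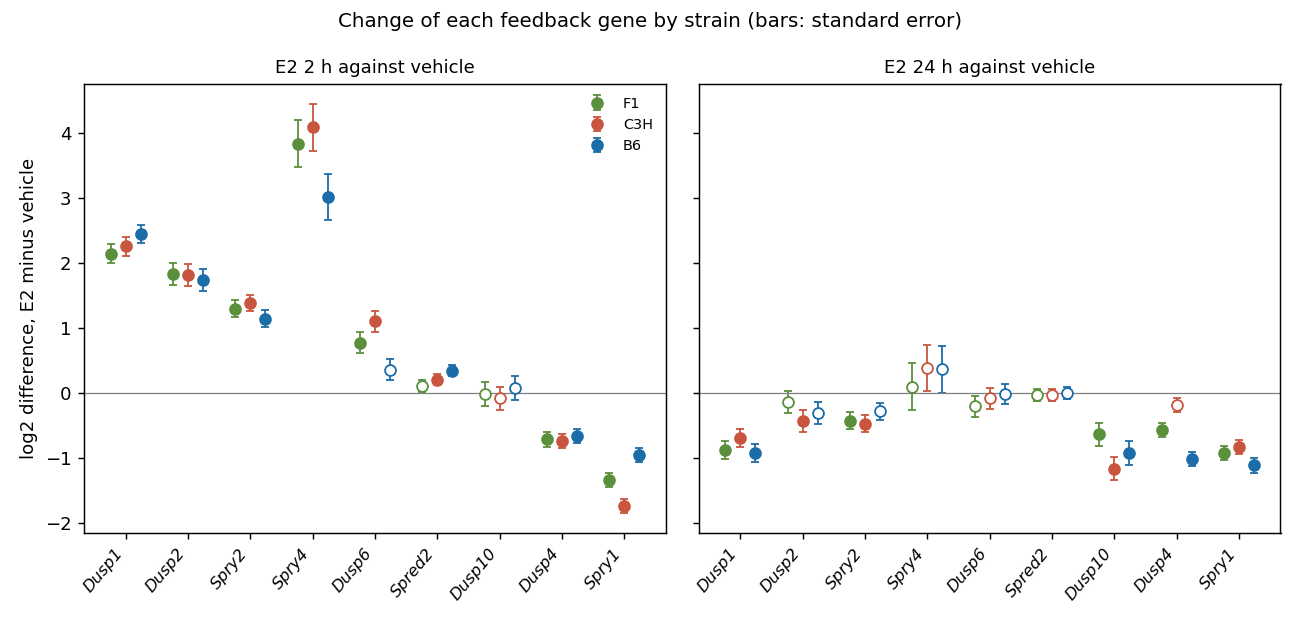
Log2 difference from vehicle of each measured gene at 2 h (left) and 24 h (right), with green for F1, red for C3H and blue for B6, bars for the standard error, filled points for differences past the adjusted threshold and open points for those that missed it. At 2 h the points run from 4.08 for Spry4 in C3H down to -1.74 for Spry1 in C3H, and at 24 h every filled point lies below 0.

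At 24 h, Dusp1, Dusp10 and Spry1 were lower with E2 in all 3 strains and no measured gene was called higher by the probe in the fit. Dusp1 read -0.77, -1.03 and -0.73 on the F1 E2 24 h arrays, -0.65, -1.02 and -0.79 on those of C3H and -1.13, -1.26 and -0.92 on those of B6, all below the vehicle arrays given above. Dusp1 was 1.85-fold lower in F1, 1.63-fold lower in C3H and 1.91-fold lower in B6 (log2 -0.88, -0.7 and -0.93, SE 0.14; adjusted p 1.11e-05, 0.000174 and 5.39e-06). So the gene stood above vehicle at 2 h and below it at 24 h in each strain.

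Dusp10, which had not passed the test at 2 h, read -1.6, -1.57 and -1.78 on the F1 E2 24 h arrays, against -1.34, -0.85 and -0.84 on the F1 vehicle arrays. It read -1.6, -2.12 and -1.96 on the C3H E2 24 h arrays, against -0.91, -0.93 and -0.33 on the C3H vehicle arrays. It read -1.95, -2.12 and -1.95 on the B6 E2 24 h arrays, against -0.99, -1.19 and -1.03 on the B6 vehicle arrays. E2 and vehicle arrays did not overlap in any strain. Dusp10 was 1.56-fold lower in F1, 2.25-fold lower in C3H and 1.91-fold lower in B6 (log2 -0.64, -1.17 and -0.93, SE 0.18; adjusted p 0.00328, 7.56e-06 and 8.79e-05).

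Spry1 read 1.12, 1.15 and 1.23 on the F1 E2 24 h arrays, 1.61, 1.39 and 1.12 on those of C3H and 1.19, 1.28 and 1.09 on those of B6. The 3 strains overlapped here, unlike B6 and C3H at 2 h, and every one of these arrays lay below every vehicle array. The log2 differences from vehicle were -0.93 in F1, -0.84 in C3H and -1.12 in B6 (SE 0.11; adjusted p 4.02e-07, 1.95e-06 and 2.31e-08).

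Dusp4 read -0.9, -0.79 and -1.13 on the F1 E2 24 h arrays, against -0.31, -0.42 and -0.38 on the F1 vehicle arrays. It read -0.57, -0.48 and -0.38 on the C3H E2 24 h arrays, against -0.26, -0.38 and -0.22 on the C3H vehicle arrays. It read -1.51, -1.72 and -1.89 on the B6 E2 24 h arrays, against -0.6, -0.69 and -0.76 on the B6 vehicle arrays. The groups were well apart in B6 and F1, while in C3H 1 E2 array shared the level of 1 vehicle array. Dusp4 was lower in F1 (log2 -0.57, adjusted p 0.000114) and B6 (log2 -1.02, adjusted p 5.58e-08), and in C3H the difference of -0.19 (SE 0.11, 95% interval -0.42 to 0.04) missed the threshold at adjusted p 0.136. The dimmer Dusp4 probe gave -0.06 in F1 (adjusted p 0.819), 0.21 in C3H (adjusted p 0.381) and -0.49 in B6 (adjusted p 0.0385), with SE 0.21.

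Of the remaining genes, few differences passed the test. Dusp2 averaged 0.26 ± 0.2 with E2 and 0.4 ± 0.45 with vehicle in F1, -0.51 ± 0.16 and -0.08 ± 0.11 in C3H, and 0.8 ± 0.12 and 1.11 ± 0.3 in B6 (SD, n = 3 arrays each). It passed the test in C3H alone of the 3 strains (log2 -0.43, adjusted p 0.0322, against -0.14 with adjusted p 0.466 in F1 and -0.31 with adjusted p 0.115 in B6), and that call was lost in 8 of 19 alternative settings, among them leaving out the 3 distant arrays (-0.41, adjusted p 0.0652). Without B6 vehicle replicate 2 the B6 value was -0.47 and passed (adjusted p 0.0304). Dusp6 gave -0.21, -0.09 and -0.02 in F1, C3H and B6 (adjusted p 0.255, 0.634 and 0.909) and did not pass, though the F1 value passed with quantile normalization (-0.44, adjusted p 0.0109) and when only the groups compared were fitted (-0.21, adjusted p 0.0318). Spry4 gave 0.09, 0.38 and 0.36 (SE 0.36; adjusted p 0.829, 0.353 and 0.384), and without B6 vehicle replicate 2 the B6 value was 1.04 (SE 0.21) and passed at adjusted p 0.000277.

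Spry2 at 24 h depended on the probe. The brighter probe read 0.67, 0.7 and 0.75 on the F1 E2 arrays, 0.56, 0.48 and 0.63 on the C3H E2 arrays and 0.7, 0.41 and 1.04 on the B6 E2 arrays, and differed from vehicle by -0.43 in F1, -0.48 in C3H and -0.29 in B6 (SE 0.13; adjusted p 0.00814, 0.00383 and 0.0644), lower in F1 and C3H. Median scaling ended both calls (-0.22 with adjusted p 0.141 in F1, -0.29 with adjusted p 0.0648 in C3H), and normexp ended that of F1 (-0.28, adjusted p 0.173). The B6 value passed without B6 E2 24 h replicate 3 (-0.45, adjusted p 0.00472), with quantile normalization (-0.36, adjusted p 0.0194) and with slide as a term (-0.65, adjusted p 0.0264). The dimmer probe was higher in all 3 strains, by 0.73 in F1, 0.7 in C3H and 0.65 in B6 (SE 0.09; adjusted p 2.82e-07, 6.51e-07 and 1.33e-06). On the dimmer probe the E2 24 h arrays ranged from -1.9 to -1.82 in F1, from -2.15 to -1.84 in C3H and from -2.19 to -1.93 in B6, against vehicle ranges of -2.71 to -2.45, -2.81 to -2.63 and -2.73 to -2.7. The probes of Spry2 therefore give opposite signs at 24 h and the same sign at 2 h, so its calls as lower in F1 and C3H hold for the brighter probe alone. Spred2 also split: the brighter probe differed by -0.04, -0.04 and -0.01 from vehicle in F1, C3H and B6 and did not pass (adjusted p 0.686, 0.68 and 0.93). Its dimmer probe was lower, with log2 differences of -0.45 in F1, -0.57 in C3H and -0.32 in B6 (SE 0.11; adjusted p 0.0016, 0.000201 and 0.0188).

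**Figure D3:**
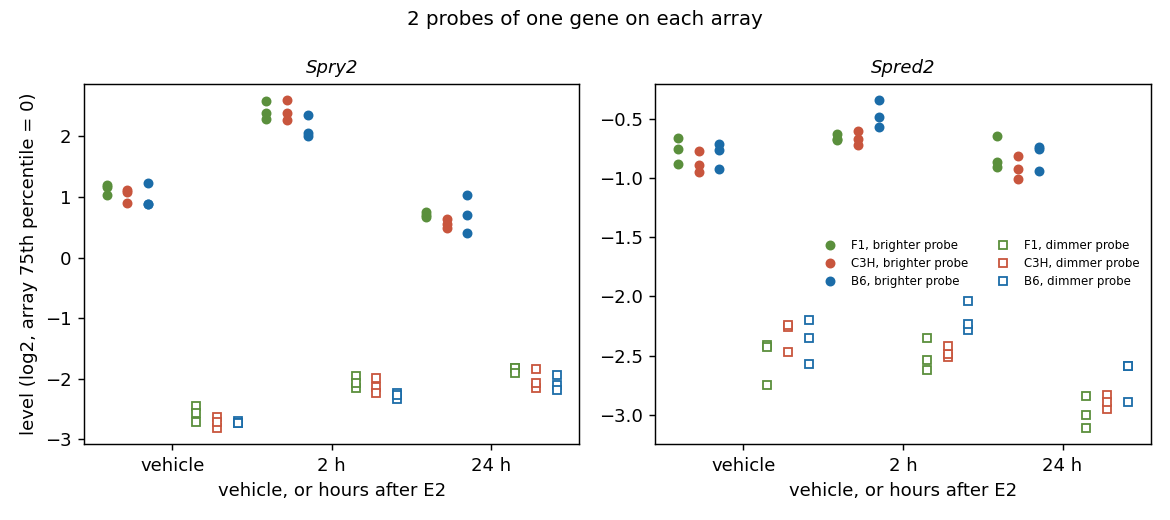
Level on each array (y axis, log2 relative to the array's 75th percentile; each panel has its own scale) of the brighter probe (filled circles) and the dimmer probe (open squares) of Spry2 (left) and Spred2 (right), for vehicle and 2 h and 24 h after E2, in F1 (green), C3H (red) and B6 (blue). For Spry2 the brighter probe peaks at 2 h, while the dimmer probe stays above vehicle at 24 h by 0.73 in F1, 0.7 in C3H and 0.65 in B6.

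In F1 5 of the 9 genes passed the test at 24 h (0 higher, 5 lower), where 68.5% of all genes did (31.8% higher, 36.7% lower). In C3H 5 of 9 passed (0 higher, 5 lower), against 67.1% (27.1% higher, 40.1% lower). In B6 4 of 9 passed (0 higher, 4 lower), against 68.0% (30.8% higher, 37.1% lower). The share of these genes called was not above the background at this time. 3 genes were called lower in all 3 strains, against 29.0% of all genes called lower, 23.0% called higher and 52.0% called with 1 sign in all strains. The median over the 9 was -0.43 in F1, -0.43 in C3H and -0.31 in B6, beside -0.03, -0.16 and -0.05 over all genes. Scaling arrays to their median shifted the medians of all genes to 0.17, 0.03 and 0.18, so the differences given here are relative to a background that moves by about this much, and the share of called genes that were higher was then 59.9%, 54.8% and 60.8% against 46.4%, 40.3% and 45.4% in F1, C3H and B6 (58.3%, 49.9% and 50.1% unscaled). Dusp1, Dusp10 and Spry1 kept their lower calls in all 3 strains under every alternative run, median scaling included. No slide held 24 h and vehicle arrays of the same strain. With slide as a term, which could be fitted for B6, Dusp1 was -0.57 (adjusted p 0.0378), Dusp4 -0.93 (0.00161), Dusp10 -0.82 (0.0496) and Spry1 -1.11 (0.000233).

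Set directly against 2 h, Dusp1, Dusp2 and Spry4, which had risen in all 3 strains, were lower at 24 h, while Spry2 again depended on the probe. From this comparison Dusp1 was 8.15-fold lower at 24 h in F1, 7.76-fold in C3H and 10.3-fold in B6 (adjusted p 1.16e-13, 2e-13 and 2e-14). Spry4 was 13.3-fold, 12.9-fold and 6.29-fold lower (adjusted p 8.94e-09, 1.15e-08 and 1.24e-06), Dusp2 3.94-fold, 4.72-fold and 4.15-fold lower (adjusted p 2.03e-09, 3.29e-10 and 1.01e-09). With normexp on all spots the Spry4 difference was -1.82 in F1, -0.95 in C3H and -1.69 in B6, and all 3 calls were lost (adjusted p 0.13, 0.438 and 0.158). The brighter Spry2 probe gave -1.72 in F1, -1.86 in C3H and -1.43 in B6 (adjusted p 3.97e-10, 1.31e-10 and 6.16e-09). The dimmer Spry2 probe gave 0.21 in F1, 0.09 in C3H and 0.21 in B6 (adjusted p 0.0384, 0.345 and 0.0374), higher at 24 h in F1 and B6. The brighter Spred2 probe gave -0.14 in F1, -0.25 in C3H and -0.35 in B6 (adjusted p 0.139, 0.0147 and 0.00121), with the C3H call lost in 7 of 21 alternative settings. The dimmer Spred2 probe gave -0.48 in F1, -0.42 in C3H and -0.51 in B6 (adjusted p 0.000875, 0.00302 and 0.000518), lower in all 3 strains. Dusp6 gave log2 differences of -0.98 in F1, -1.19 in C3H and -0.37 in B6 (adjusted p 1.52e-05, 1.23e-06 and 0.0439), and the B6 call was lost in 11 of 21 alternative settings. Dusp10 was also lower, with -0.62 in F1, -1.08 in C3H and -1.01 in B6 (adjusted p 0.00401, 1.6e-05 and 3.52e-05). Its C3H call was lost in 1 of 21 alternative settings and its F1 call in 1 of 19, normexp on all spots (-0.56, adjusted p 0.099). Spry1 went the other way in F1 (0.41, adjusted p 0.00294) and C3H (0.9, adjusted p 5.55e-07), where it was higher at 24 h than at 2 h, and in B6 the difference of -0.16 did not pass (adjusted p 0.221). Its F1 call was lost with normexp on all spots (0.4, limma adjusted p 0.0689). Dusp4 was higher at 24 h than at 2 h in C3H (0.55, adjusted p 0.000159), lower in B6 (-0.36, adjusted p 0.00703) and not called in F1 (0.15, adjusted p 0.234). The B6 call was lost in 5 of 21 alternative settings, among them median scaling (-0.19, adjusted p 0.139), probes averaged (-0.29, adjusted p 0.0526) and slide as a term (-0.26, adjusted p 0.101). The dimmer Dusp4 probe gave 0.12 in F1, 0.83 in C3H and -0.22 in B6 (adjusted p 0.631, 0.00132 and 0.345) and passed in C3H of the 3 strains. Within slide 4, which held 3 C3H E2 2 h arrays and 1 C3H E2 24 h array, Spry1 was 1.13 (adjusted p 0.00932) and Dusp4 0.46 (adjusted p 0.137); within slide 2 Dusp4 in B6 was -0.26 (adjusted p 0.0975). In this comparison 7 of 9 genes passed in F1 (1 higher, 6 lower), against 68.4% of all genes (37.6% higher, 30.8% lower). In C3H 9 of 9 passed (2 higher, 7 lower), against 70.6% (33.9% higher, 36.7% lower). In B6 8 of 9 passed (0 higher, 8 lower), against 68.6% (35.5% higher, 33.1% lower). The order of levels was 2 h, vehicle, 24 h for Dusp1 in every strain, with each neighbouring pair called. In F1 and C3H 2 h was also above both others for Dusp2, Dusp6 and Spry4, and vehicle and 24 h did not pass the test against each other except for Dusp2 in C3H. For Spry1 vehicle was highest in every strain.

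The vehicle groups addressed how the strains differ before estradiol. Dusp2 differed: vehicle arrays averaged 0.4 ± 0.45 in F1, -0.08 ± 0.11 in C3H and 1.11 ± 0.3 in B6 (SD, n = 3 arrays each). It was 2.27-fold lower in C3H than in B6 (log2 -1.19, SE 0.17, adjusted p 1.95e-05) and 1.63-fold lower in F1 than in B6 (log2 -0.7, adjusted p 0.00903), and F1 was 0.48 above C3H, which missed the threshold (adjusted p 0.0681). C3H and B6 vehicle arrays did not overlap, while F1 vehicle replicate 1, at 0.92, lay above the lowest B6 array. The F1 call was lost when B6 vehicle replicate 1 (adjusted p 0.0592), F1 vehicle replicate 2 (0.06) or F1 vehicle replicate 3 (0.0588) was left out, and without the 3 distant arrays (-0.55, adjusted p 0.0676). Dusp4 was higher in C3H than in B6 (log2 0.4, SE 0.11, adjusted p 0.0106), and in F1 the difference from B6 was 0.32 (adjusted p 0.0673). The F1 difference passed with median scaling (0.37, adjusted p 0.0368) and with quantile normalization (0.33, adjusted p 0.0483). The dimmer Dusp4 probe gave 0.14 for C3H against B6 (adjusted p 0.694), and the call was lost with normexp (0.34, adjusted p 0.766), unscaled (0.38, adjusted p 0.0516) and with probes averaged (0.27, adjusted p 0.149). With slide as a term Dusp2 in C3H against B6 was -0.88 (SE 0.41, adjusted p 0.233) and Dusp4 0.67 (adjusted p 0.143), and neither passed. These were the 2 of 9 genes called between C3H and B6, where 24.1% of all genes were, and Dusp2 was the 1 of 9 between F1 and B6 (12.5%). Dusp6 was also called in C3H against B6 without B6 vehicle replicate 1 (0.46, adjusted p 0.0344) and without the 3 distant arrays (0.46, adjusted p 0.0357), against 0.25 (adjusted p 0.281) with all arrays. Between F1 and C3H limma called 0 of 9 (14.3% of all genes), with 1 gene, Dusp2, at an unadjusted p under 0.05. It passed at 0.61 without F1 vehicle replicate 2 (adjusted p 0.0432) or replicate 3 (adjusted p 0.0393). The strain order of Dusp2 was the same after E2, with means of 2.24 ± 0.05 in F1, 1.73 ± 0.09 in C3H and 2.85 ± 0.19 in B6 at 2 h, and 0.26 ± 0.2, -0.51 ± 0.16 and 0.8 ± 0.12 at 24 h, levels that were not tested between strains.

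The response itself differed between C3H and B6 for 1 gene at each time. At 2 h the fall of Spry1 was larger in C3H than in B6: the difference of the log2 responses, C3H minus B6, was -0.78 (SE 0.16, 95% interval -1.11 to -0.44, adjusted p 0.0108). The responses were -1.74 in C3H and -0.96 in B6, on vehicle levels of 2.21 ± 0.14 and 2.31 ± 0.14 that did not differ beyond their spread (SD, n = 3 arrays each; adjusted p 0.612). F1 lay between, with a response of -1.34: F1 minus B6 was -0.38 (adjusted p 0.366) and F1 minus C3H 0.4 (adjusted p 0.426), neither past the threshold. Without the 3 arrays farthest from their groups the C3H minus B6 difference was -0.61 (adjusted p 0.0382). On unscaled signals it was -0.69 (adjusted p 0.117), which ended the call, as did normexp on all spots (-0.65, adjusted p 0.738). The call held with normexp fitted without spots far below local background. With slide as a random block the difference was -0.78 (adjusted p 0.0113), at a fitted slide correlation of 0.00699. That block cannot separate slide from treatment, since C3H E2 2 h and C3H vehicle arrays shared no slide. The C3H E2 2 h array with the high leukocyte marker signal, replicate 1, was also the lowest of the 3 C3H E2 arrays for Spry1, at 0.3 against 0.53 and 0.6; without that array alone the difference was -0.69 (adjusted p 0.0352).

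At 24 h the fall of Dusp4 was smaller in C3H than in B6, by 0.83 (SE 0.16, 95% interval 0.51 to 1.16, adjusted p 0.00114). The responses were -0.19 in C3H and -1.02 in B6, and F1 again lay between, at -0.57: F1 minus B6 was 0.45 (adjusted p 0.13) and F1 minus C3H -0.38 (adjusted p 0.184). The dimmer Dusp4 probe, the one assigned to a RefSeq transcript, gave a C3H minus B6 difference of 0.7 (SE 0.29, adjusted p 0.104), of the same sign and short of the threshold. Without the 3 distant arrays the difference was 0.84 (adjusted p 0.00283), while normexp on all spots gave 0.83 and ended the call (adjusted p 0.213). The call held with normexp fitted without spots far below local background. With slide as a random block the difference was 0.83 (adjusted p 0.00128), at a fitted slide correlation of 0.00699. That block cannot separate slide from treatment, since no slide held 24 h and vehicle arrays of the same strain. The 2 h responses of Dusp4 differed by -0.07 (adjusted p 0.87) between C3H and B6. Some cell type markers were also called in the 24 h response, C3H minus B6, where 18.7% of all genes were called. The epithelial markers Krt7 (-0.66, adjusted p 0.0199) and Krt8 (-0.46, adjusted p 0.0415) were called lower, 2 of 6 on their list. The endothelial markers Pecam1 (0.36, adjusted p 0.0401) and Tek (0.41, adjusted p 0.00736), 2 of 5, and the leukocyte marker Csf1r (1.11, adjusted p 0.0238), 1 of 8, were called higher, and 0 of 6 stromal and 0 of 6 smooth muscle markers were called. Their part in the Dusp4 difference was not tested.

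Of all genes tested, 2.16% were called for a C3H minus B6 difference at 2 h and 18.7% at 24 h, against 1 of 9 genes at each time here. For F1 minus B6, limma called 0 of 9 at both times (0.599% of all genes at 2 h, 1.90% at 24 h), and for F1 minus C3H 0 of 9 at both (0.229% and 3.70%). At an unadjusted p under 0.05, Spry1 at 2 h and Dusp4 at 24 h stood in both F1 comparisons, and Dusp10 at 24 h in F1 minus C3H. The larger Dusp6 response of C3H at 2 h, by 0.75 (SE 0.23, 95% interval 0.28 to 1.22), missed the threshold (adjusted p 0.0952), though it passed on unscaled signals at 0.84 (adjusted p 0.0341). For Spry4 the C3H minus B6 difference was 1.06 (SE 0.51, adjusted p 0.327), and with the normexp correction described for Spry4 above 0.63 (SE 0.17, adjusted p 0.0445). Dusp1 and Dusp2, with C3H minus B6 differences of -0.18 (SE 0.2) and 0.06 (SE 0.24) at 2 h, gave no call (adjusted p 0.71 and 0.935).

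Other genes of the same pathways were read from lists of known function. Their counts stand beside 59.2% of all genes called at 2 h in F1 (23.7% higher, 35.5% lower), 60.3% in C3H (24.9% higher, 35.5% lower) and 56.2% in B6 (23.1% higher, 33.1% lower). At 24 h the shares were 68.5% in F1 (31.8% higher, 36.7% lower), 67.1% in C3H (27.1% higher, 40.1% lower) and 68.0% in B6 (30.8% higher, 37.1% lower). The other 4 MAP kinase phosphatases measured all rose at 2 h in every strain: Dusp8, which acts on JNK and p38, by 2.96 in F1, 2.31 in C3H and 3.2 in B6 on the log2 scale, Dusp16, also a JNK and p38 phosphatase, by 1.24, 1.2 and 1.03, and the ERK phosphatases Dusp7 by 0.93, 0.66 and 0.94 and Dusp9 by 0.44, 0.79 and 0.37 (largest adjusted p 0.0211). At 24 h Dusp9 was still higher in all 3 strains, by 0.82 in F1, 0.69 in C3H and 0.58 in B6 (largest adjusted p 6e-04), while 1 other gene was lower in F1, 3 in C3H and 0 in B6. Of 12 measured atypical dual-specificity phosphatases 2 were higher and 6 lower at 2 h in F1, 2 and 5 in C3H, and 4 and 6 in B6; at 24 h the counts were 7 and 2, 5 and 5, and 5 and 1. Dusp26 was lower at both times, by log2 differences of -1.34 in F1, -1.14 in C3H and -1.15 in B6 at 2 h and -2.46, -2.14 and -3.05 at 24 h (largest adjusted p 8.86e-10). Dusp19, at 1.15, 1.21 and 1.23, and Dusp18, at 0.9, 0.83 and 1.33, were higher at 24 h in the same 3 strains (largest adjusted p 4.26e-05).

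Of 13 other measured inhibitors of receptor tyrosine kinase and RAS signalling, 3 were higher and 5 lower at 2 h in F1, 4 and 5 in C3H, and 3 and 6 in B6. Errfi1, an inhibitor of the EGF receptor, rose most, by 3.5 in F1, 3.52 in C3H and 3.57 in B6 (largest adjusted p 3.69e-17), and Lrig1, which also opposes the EGF receptor, by 1.1, 0.75 and 1.7 (largest adjusted p 5.74e-05). Lrig3 was lower, at -1.5, -1.47 and -1.06 (largest adjusted p 4.76e-10), as was the ubiquitin ligase Cblb, at -1.29, -1.18 and -1.06 (largest adjusted p 6.25e-05). At 24 h 2 were higher and 8 lower in each strain: Cblb at -1.34 in F1, -1.03 in C3H and -1.3 in B6, the FGF signalling inhibitor Il17rd (Sef) at -1.06, -0.83 and -1.14, and the RAS inactivator Nf1 at -0.88, -0.58 and -0.77 were lower (largest adjusted p 0.0044), and Lrig1 was higher, at 1.05, 0.49 and 1.29 (largest adjusted p 0.00305). The list's 24 h medians were -0.41 in F1, -0.25 in C3H and -0.45 in B6.

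Among 18 genes of the RAS-ERK cascade itself, 8 were higher and 4 lower at 2 h in F1, 9 and 3 in C3H, and 9 and 4 in B6. The scaffold gene Ksr1 rose by 2.99 in F1, 2.91 in C3H and 2.98 in B6, and Map2k1, which encodes MEK1, by 1.91, 1.9 and 1.92 (largest adjusted p 1.94e-14). Hras rose by 0.97 in F1, 0.93 in C3H and 0.91 in B6 (largest adjusted p 9.99e-12). At 24 h 7 of the 18 were higher and 5 lower in F1, 7 and 5 in C3H, and 8 and 4 in B6, with Rps6ka3, a kinase that ERK activates, at 1.71, 1.46 and 1.72 (largest adjusted p 6.07e-11). Of 16 genes of the JNK and p38 cascades, 9 were higher and 4 lower in F1, 10 and 4 in C3H, and 10 and 5 in B6, led by Mapkapk2, a kinase downstream of p38, at 2.35, 2.52 and 2.42 (largest adjusted p 5.82e-17). At 24 h 6 of the 16 were higher and 5 lower in F1, 6 and 4 in C3H, and 6 and 6 in B6, with the p38 gene Mapk13 at 1.3, 1.2 and 1.32 and the JNK gene Mapk8 at -1.45, -1.09 and -0.91 (largest adjusted p 1.49e-06). Of 15 genes known to respond to ERK, 11 were higher at 2 h in each strain and 4, 3 and 2 lower in F1, C3H and B6, with medians of 2.16, 2 and 1.99. The 4 with the largest mean change were Fos (5.18 in F1, 5.62 in C3H and 5.21 in B6), Fosl1 (5.29, 4.17 and 4.64), Egr3 (3.81, 4.14 and 4.64) and Ier2 (2.94, 3.08 and 3.15), with a largest adjusted p of 7.07e-11. Of these 15 genes, 3 were higher and 5 lower at 24 h in F1, 2 and 8 in C3H, and 6 and 4 in B6, with Egr3 at -1.32 in F1, -1.63 in C3H and -0.81 in B6, Egr1 at -0.79, -1.26 and -0.47, and Etv4 higher at 1.34, 0.82 and 1.22 (largest adjusted p 0.0127).

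**Figure D4:**
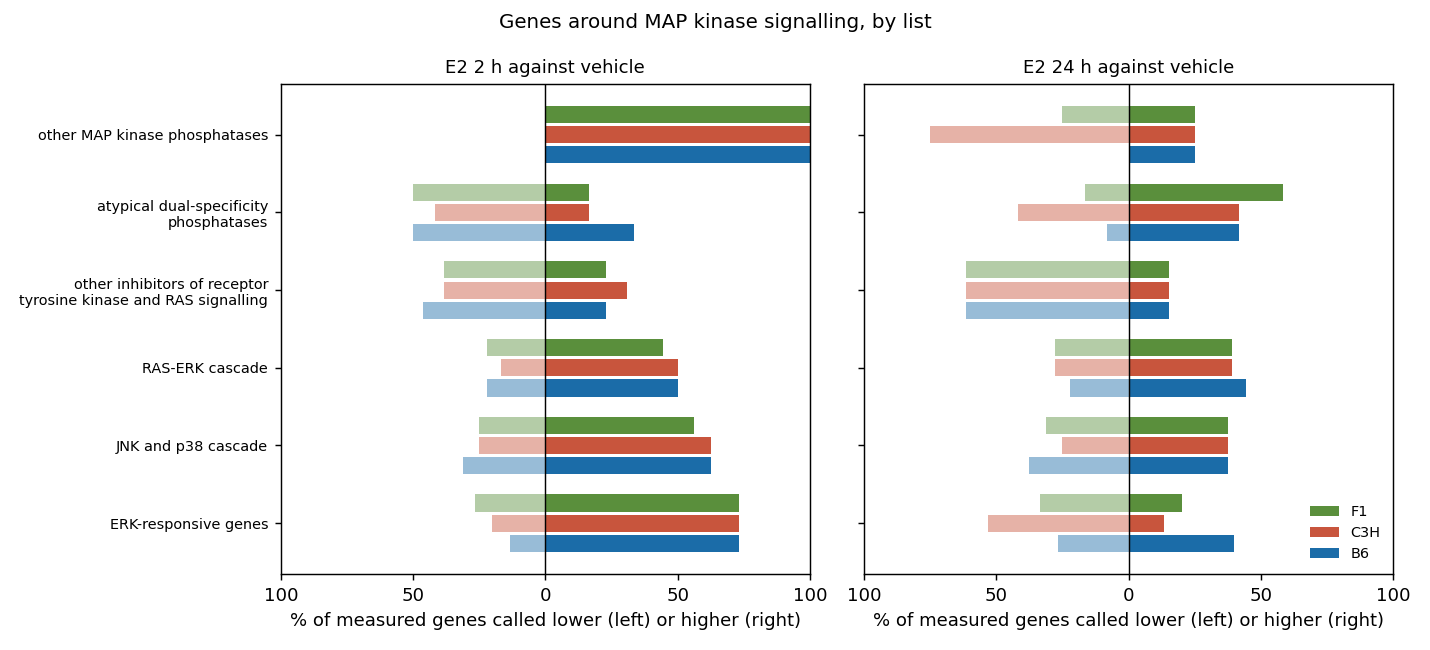
Share of the measured genes of each list that was called higher (solid bars, to the right) or lower (pale bars, to the left) at 2 h and at 24 h after E2, in F1 (green), C3H (red) and B6 (blue). The 4 other MAP kinase phosphatases are all higher at 2 h in every strain, and the list of other inhibitors has 8 of 13 genes lower at 24 h in every strain. Of all genes, 36.7% in F1, 40.1% in C3H and 37.1% in B6 were lower at 24 h.

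Across the 27 arrays, which share slides, treatments and strains, Dusp1 and Spry2 had the closest profiles among the measured genes (Pearson r 0.969), followed by Dusp1 with Spry4 (0.897) and Spry2 with Spry4 (0.892). Dusp1 and Dusp2 had r 0.846, Dusp6 and Spry2 0.845, and Spry1 with Spry4 -0.684. Among 21820 genes with values on all arrays, the named gene closest to Dusp1 was Slc9a2 (r 0.992), to Dusp2 Ackr2 (0.977), to Spry2 Foxn2 (0.982), and to Spry4 Btbd10 (0.977) and Ube2d2a (0.972). Dusp6 was closest to Slc25a29 (0.931) and Tox4 (0.926), Dusp4 to Gpt2 (0.944) and Per3 (0.939), and Dusp10 to Ppp1r12c and Ppp1r12a (both 0.923). Spry1 was closest to 2900006A17Rik (0.966) and Echdc3 (0.956), and Spred2 to Pcgf3 (0.888) and 9430098F02Rik (0.865). These are descriptions over 27 arrays that also share the E2 contrast. They use the probe in the fit, so those of Spry2, Dusp4 and Spred2 hold for the brighter probe. The dimmer Spry2 probe was not lower at 24 h than at 2 h in any strain.

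Marker genes of the tissue's cell types were called at 24 h, beside the falls of Dusp1, Dusp10 and Spry1 in all 3 strains. Dusp4 was lower in F1 and B6 by the probe in the fit. Of all genes, 31.8% were called higher and 36.7% lower at 24 h in F1, 27.1% and 40.1% in C3H, and 30.8% and 37.1% in B6. All 6 epithelial markers were higher at 24 h in every strain, and their summed signal ranged from 8.06 to 8.29 with E2 and from 6.91 to 7.14 with vehicle in F1, from 7.82 to 8 and from 6.88 to 7.04 in C3H, and from 8.2 to 8.31 and from 6.83 to 6.9 in B6 (log2 scale). Of 6 stromal markers 2 were higher (Col1a1 and Col1a2) and 4 lower at 24 h in each strain, and their summed signal ranged from 8.31 to 8.65 with E2 and from 6.68 to 7.1 with vehicle over the strains. Of 6 smooth muscle markers 6 were higher in F1, 5 in C3H and 5 in B6. Endothelial markers were lower for 4 of 5 genes in F1, 2 in C3H and 5 in B6, with summed signals of 2.47 to 2.69 with E2 and 2.82 to 3.12 with vehicle in F1, 2.75 to 2.82 and 3.02 to 3.14 in C3H, and 2.38 to 2.47 and 2.85 to 3 in B6. Of the 8 leukocyte markers 1 was higher at 24 h in F1, 1 in C3H and 0 in B6, where 2 were lower. At 2 h the stromal markers Hoxa10, Nr2f2 and Pdgfra were lower in all 3 strains, at -1.78, -2.02 and -1.03 in F1, -1.88, -2.28 and -1.16 in C3H, and -1.64, -2.07 and -1.01 in B6, while 1 epithelial marker was higher in each strain and 2 were lower in F1, 3 in C3H and 2 in B6. The stromal marker Pdgfrb was higher at 2 h, at 0.5 in F1, 0.35 in C3H and 0.61 in B6 (largest adjusted p 0.00348). Of 8 leukocyte markers, 3 (Cd3e, S100a8 and S100a9) were higher at 2 h in C3H, and 0 were called in F1 and B6. The summed leukocyte signal of C3H was 5.71, 2.95 and 2.87 with E2 at 2 h, against 2.76, 2.55 and 3.03 with vehicle. Replicate 1 alone of these E2 arrays lay above the vehicle range. Of 6 smooth muscle markers 3 were higher and 1 lower at 2 h in F1, 2 and 1 in C3H, and 3 and 1 in B6. Of 5 endothelial markers 2 were lower in F1, 2 in C3H and 3 in B6. Over all genes, 23.7% were higher and 35.5% lower at 2 h in F1, 24.9% and 35.5% in C3H, and 23.1% and 33.1% in B6. Counts near the shares of all genes, such as the endothelial ones in C3H at both times, do not set a list apart. The part of the marker changes in the changes of the phosphatase and Sprouty genes was not tested.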

How the data were processed

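RNA from uteri was hybridised to one-colour Agilent arrays, 500 ng of total RNA giving 1.65 µg of cRNA hybridised for 17 h, per the labels' protocols. The deposited files are scanner output whose intensity columns (processed signal) were made by the authors with Feature Extraction 9.5 per the submitters' processing notes (9.5.3.1 per the file headers); the deposited value table equals that processed signal in 27 of 27 columns (tolerance 1e-04). Arrays have no read depth, so the number of arrays limits precision. Control spots (1639 of 45018) and outlier spots (48 to 117 per array) were left out, spots of a probe were averaged, and log2 signals were set relative to the 75th percentile of their array. A probe was kept if every array of some group had it well above background (32901 probes), and each gene was taken by its probe of highest mean (7487 genes had more than 1). A limma group-means model over all 27 arrays (R 4.3.3, limma 3.58.1) gave 18 contrasts. The threshold was 0.05 after Benjamini-Hochberg adjustment across 21866 genes. Tests were checked on simulated data in which few genes were changed, in a single group. That simulation skipped the scaling step, so it does not bear on the scaling.

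The members and the lists were chosen with earlier results of these data known. All members are named, with their other probes in the E2 comparisons. Genes of lists come from the up to 4 per list and time called with 1 sign in all 3 strains with the largest mean change, and the 2 genes most alike in profile to each member are given where they have a name. Markers called in the 24 h response, C3H minus B6, and leukocyte markers at 2 h were named after their values were seen. Alternatives were normexp background correction, median, quantile and no scaling, other filters on dim probes, single probes and probe means, slide as a fixed or random block or within 1 slide, only the groups compared, a replicate block, and each array left out. Leaving out the 3 most distant arrays, and normexp fitted without spots far below local background, were added after seeing the data. Same-numbered arrays did not deviate together (correlations -0.124 to 0.168), so the numbers were not taken as pairs. Array gene names are those of the design, updated through RefSeq accessions or symbols where these matched. Probe coordinates are those of the scanner files (mm7), and promoter windows are from RefSeq on GRCm38.p6.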

Additional observations from a re-analysis of the deposited data

Results flagged for a closer look

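In 2 results the strains' responses differed by a test of the difference itself. At 2 h the log2 response of Spry1 differed by -0.78, C3H minus B6 (SE 0.16, limma adjusted p 0.0108), with falls of different size in the 2 strains. At 24 h the log2 response of Dusp4 differed by 0.83, C3H minus B6 (SE 0.16, adjusted p 0.00114), with C3H nearer to its vehicle level than B6. Of all genes tested, 2.16% were called for this difference at 2 h and 18.7% at 24 h. Both calls ended with normexp on all spots, and that of Spry1 also on unscaled signals (-0.69, adjusted p 0.117). The dimmer Dusp4 probe gave 0.7 and did not pass (adjusted p 0.104).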

How the results depend on the processing

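Of 162 pairs of gene and comparison, 65 were called, and 39 of these kept sign and call under every alternative run. Reversed values were Spred2 at 24 h in B6 under median scaling (0.23, adjusted p 0.0231) and Spry2 at 24 h with its probes averaged (0.15 in F1, 0.11 in C3H and 0.18 in B6, adjusted p 0.084, 0.208 and 0.0416), where its probes have opposite signs. With normexp, genes called fell to 4 at 2 h in B6, 4 at 24 h against 2 h in F1, 1 for vehicle C3H against B6, 0 for vehicle F1 against B6, and 0 for both C3H minus B6 response differences (Spry1 -0.65, adjusted p 0.738; Dusp4 0.83, adjusted p 0.213). Under it Spry4 at 2 h was 0.72 in F1, 1.21 in C3H and 1.4 in B6 (adjusted p 0.505, 0.405 and 0.376). On 5 of 27 arrays its fitted background mean was -944 to -355, against at least -64.1 on the others, and with up to 16 spots per array left out it was -7.92 to 0.945; then 2 genes were called for the 2 h difference, C3H minus B6. Median scaling gave 3 calls at 24 h in C3H, 5 at 24 h against 2 h in B6 and 2 for vehicle F1 against B6, and quantile normalization also gave 2 for the last. Vehicle C3H against B6 had 1 call with no scaling, 1 with probes averaged and 0 with slide as a term; vehicle F1 against B6 had 0 with only the groups compared and 0 without the 3 distant arrays. Leaving out 1 array gave 0 to 1 calls for vehicle F1 against B6 and 0 to 1 for vehicle F1 against C3H. Except where stated, the cause was not tested. With the replicate block, the differences of response were -0.78 for Spry1 (adjusted p 0.014) and 0.83 for Dusp4 (adjusted p 0.000864), and the 1 call that changed was Dusp6 at 24 h against 2 h in B6 (-0.37, adjusted p 0.0567). Slide as a term and within-slide values could be had only where a slide held both groups or linked them. Signal near background limits Spry4 with vehicle.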
